A study of Drosophila melanogaster with 17 samples.

Results

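Progenitor cells sorted from the guts of adult virgin female Drosophila melanogaster carrying Lactobacillus brevis as their only bacterium (n = 3) were compared with the same cells from flies kept germ-free (n = 2). These 5 libraries were chosen by their labels, from 17 libraries in 6 groups, and the comparison ran over all 17737 genes counted. Both groups had the genotype esgts, the study's control, in which a temperature-sensitive driver under the control of escargot is active in progenitor cells, and neither carried an RNA interference construct. Per the labels' protocols, flies spent 5 days at 25 °C, received the bacterium overnight or stayed germ-free, and spent 5 further days at 29 °C, the temperature at which such drivers are active. Each sample pooled 100 guts, from which small cells positive for green fluorescent protein were sorted, so stem cells and their undifferentiated daughters were collected together. The germ-free group has 2 libraries because 1 of its samples was lost during the preparation of RNA, as the series' design text states. The other groups of the series were the same genotype with Lactobacillus plantarum (n = 3) and 3 groups of esgts/NRNAi flies, in which the driver also expresses RNA interference against Notch (n = 3 each).

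Intestinal stem cells of the fly midgut renew the gut lining by dividing into further stem cells and into daughters that become absorptive enterocytes or hormone-secreting enteroendocrine cells. Stem cells carry the ligand Delta, and its receptor Notch acts in the daughters. Gut bacteria are known to speed this renewal, and their peptidoglycan is sensed by peptidoglycan recognition proteins upstream of the Imd immune pathway. In bulk RNA from sorted cells, fewer cells of a type and less RNA per cell cannot be told apart.

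Total counts were 36799569 and 24192918 in the germ-free libraries and 31492947, 32784292 and 32147851 in the L. brevis libraries. Ribosomal RNA genes took 19.5% and 19.9% of the counts in germ-free libraries and 13.6%, 16.3% and 13.9% with L. brevis. The summed level of 7 tested progenitor markers was 1795 and 2007 CPM, counts scaled to a library total of 1000000, in germ-free cells and 2022, 2067 and 1955 CPM with L. brevis, so the groups overlapped. Escargot itself was listed as a marker but was not among these 7. A pair of libraries stood apart. L. brevis replicate 3 held visceral muscle transcripts, with myosin heavy chain (Mhc) at 32.3 CPM against 0.243 to 0.641 CPM in the other 4 libraries. Germ-free replicate 1 held more digestive enzyme transcripts, 47772 CPM over 45 enterocyte digestive genes against 23691 CPM in germ-free replicate 2 and 30349 to 36458 CPM with L. brevis. Of the 20 visceral muscle genes and the 45 digestive genes, 0 and 1 were called different, and their part in the other results was not tested. Ovary markers summed to 6.61 to 7.74 CPM, with Cp16, Cp36, Vm32E and osk at 0 in all 5 libraries. P-values rest on the spread between samples of a group, shared over all 17 libraries, and the labels call these samples biological replicates.

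L. brevis was accompanied by higher expression of many small metabolic genes and of DNA replication genes, by higher Delta, and by lower expression of some junction and integrin genes and of single genes such as vn, LpR2 and Dh44. Of 11786 genes tested, 939 differed at an adjusted p under 0.05 in the quasi-likelihood test of edgeR, adjusted by Benjamini-Hochberg over all of them, which is 7.97%. Of these, 591 were higher with L. brevis (5.01%) and 348 were lower (2.95%). Changes were mostly small, and 141 called genes moved at least 2-fold, 53 up and 88 down. The groups did not overlap in 937 of the 939 called genes, but the same held for 40.2% of all genes tested, since 2 libraries against 3 separate easily.

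**Figure D1:**
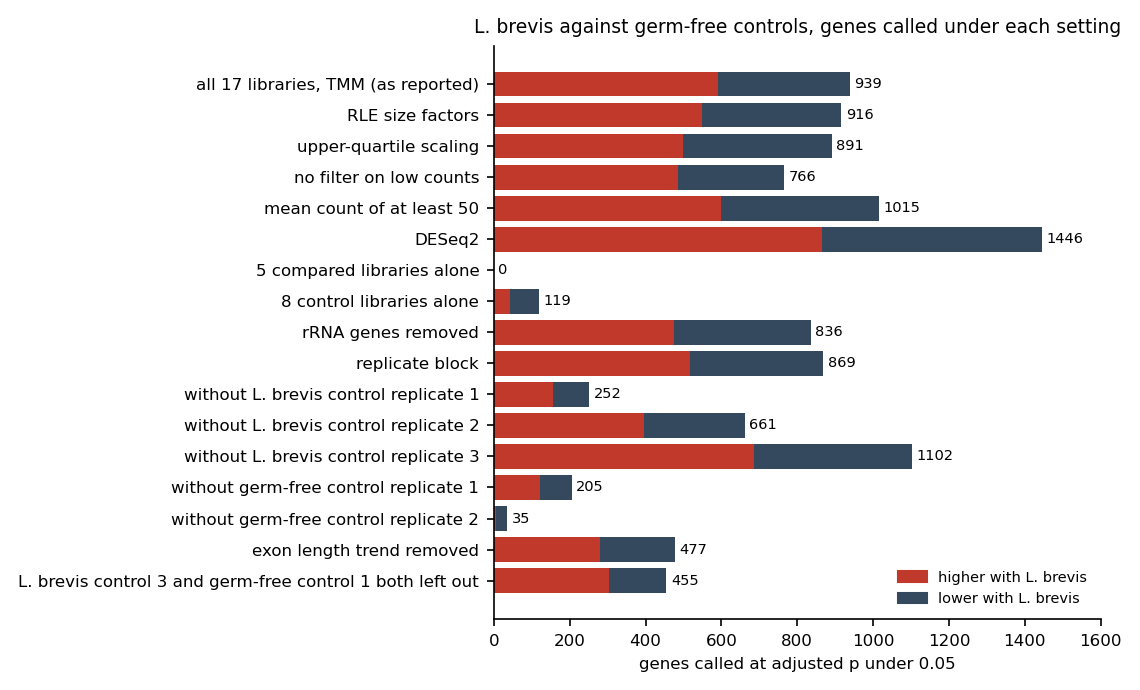
Genes called higher (red) and lower (dark) with L. brevis than in germ-free controls, as a bar per setting of the analysis, in number of genes at an adjusted p under 0.05. The fit used throughout gave 939 calls, fits leaving out 1 of the 5 libraries gave 35 to 1102, and a fit on the 5 libraries alone gave 0.

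The calls rest on a spread shared across all 17 libraries. When the 5 compared libraries were fitted alone, 0 genes passed the edgeR adjusted p and 2172 had an unadjusted p under 0.05, against 2978 in the shared fit, while DESeq2 on all 17 libraries called 1446. Leaving out germ-free replicate 2 left 35 calls, 20% of them higher, and leaving out germ-free replicate 1 or L. brevis replicate 1 left 205 and 252. Of the 167 called genes that the text draws on, 7 stayed called whichever library was left out, namely Fas3, LpR2, ItgaPS4, Dh44, CG31183, CG32706 and CG6999. The genes CG32706 and CG6999 are neighbours, and sharing of reads between them was not tested.

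Short genes were higher and long genes lower with L. brevis, in a trend across the whole transcriptome. Protein-coding genes were put in 4 bins of equal size by summed exon length, and the median log2 fold change was 0.22 in the shortest bin (175 to 1237 bases), 0.11 and -0.02 in the middle bins, and -0.23 in the longest (3414 to 69810 bases). In the shortest bin 11.9% of genes were called higher and 0.424% lower, and in the longest 0.579% higher and 7.83% lower. Spearman's rho between exon length and log2 fold change was -0.34 across genes, which are not independent replicates and share the same libraries. The trend was strongest in L. brevis replicate 1, where the fitted trend in log2 CPM was 0.21 at 1000 bases and -0.42 at 6004 bases. In L. brevis replicates 2 and 3 it was -0.17 and -0.04 at 6004 bases, and in the germ-free libraries 0.06 and 0.11. A fit with this trend removed from every library, added after seeing the data, called 477 genes, 280 higher (2.38%) and 197 lower (1.67%), and its counts are given beside the main gene groups. The part of RNA quality or library preparation in the trend was not tested.

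**Figure D2:**
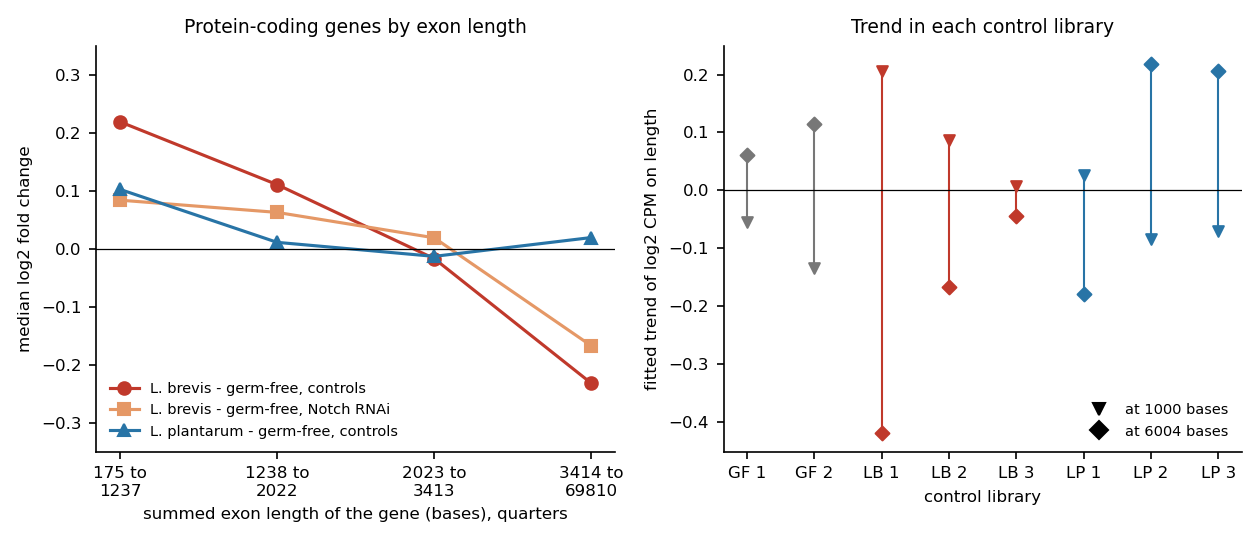
Left, median log2 fold change of protein-coding genes by bin of summed exon length (bases) for 3 comparisons. It falls from 0.22 to -0.23 for L. brevis against germ-free controls and from 0.08 to -0.17 in Notch RNAi, while L. plantarum against germ-free ends at 0.02. Right, fitted trend of log2 CPM on exon length at 1000 and 6004 bases in each control library of the germ-free (GF), L. brevis (LB) and L. plantarum (LP) groups, with LB 1 farthest from 0.

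Of 7 progenitor markers tested, which did not include escargot, 3 rose and 0 fell. Delta (FBgn0000463, 3R:19302731-19326217, minus strand of the BDGP6 annotation) had 15.1 and 9.24 CPM in germ-free libraries and 31.8, 22.4 and 37.3 CPM with L. brevis. Every L. brevis library lay above both germ-free libraries, although the groups also did not overlap in 40.2% of all genes tested. The log2 fold change of Delta was 1.32 (SE 0.226, edgeR adjusted p = 0.00770). Sanpodo (spdo), a membrane protein that assists Notch signalling after asymmetric divisions, had 2.85 and 2.03 CPM in germ-free cells and 6.58, 5.6 and 7.18 CPM with L. brevis. It rose by 1.39 on the log2 scale (SE 0.235, edgeR adjusted p = 0.00735), again without overlap. Sox21a, a transcription factor of progenitors, rose by 0.33 (SE 0.092, edgeR adjusted p = 0.0413), from 257 and 280.0 CPM to 339, 345 and 329 CPM, a call lost without any 1 library other than L. brevis replicate 3 (adjusted p from 0.0847 to 0.229). The remaining 4 markers tested did not pass. The asymmetric division factor miranda (mira) stood at 135 and 160 CPM against 171, 185 and 197 CPM, with an edgeR adjusted p of 0.149, and klu, Sox100B and Notch itself (N) had log2 fold changes of -0.02, -0.01 and -0.01. After removal of the length trend, 4 of the 7 markers were higher. Delta and spdo each lost the call without germ-free replicate 2, with an adjusted p of 0.0932 for both.

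Genes that read out Notch activity did not pass the test. Of 10 tested genes of the E(spl) complex and other Notch targets, 0 were called, with a median log2 fold change of 0.30, against 0.01 over all genes. E(spl)m8-HLH, a repressor induced by Notch, was at 0.212 and 0.216 CPM in germ-free cells and 1.35, 0.362 and 0.809 CPM with L. brevis (edgeR adjusted p = 0.0590). Among 18 genes of the Notch receptor, ligands and core pathway, Delta was the only one called, with and without the length trend.

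**Figure D3:**
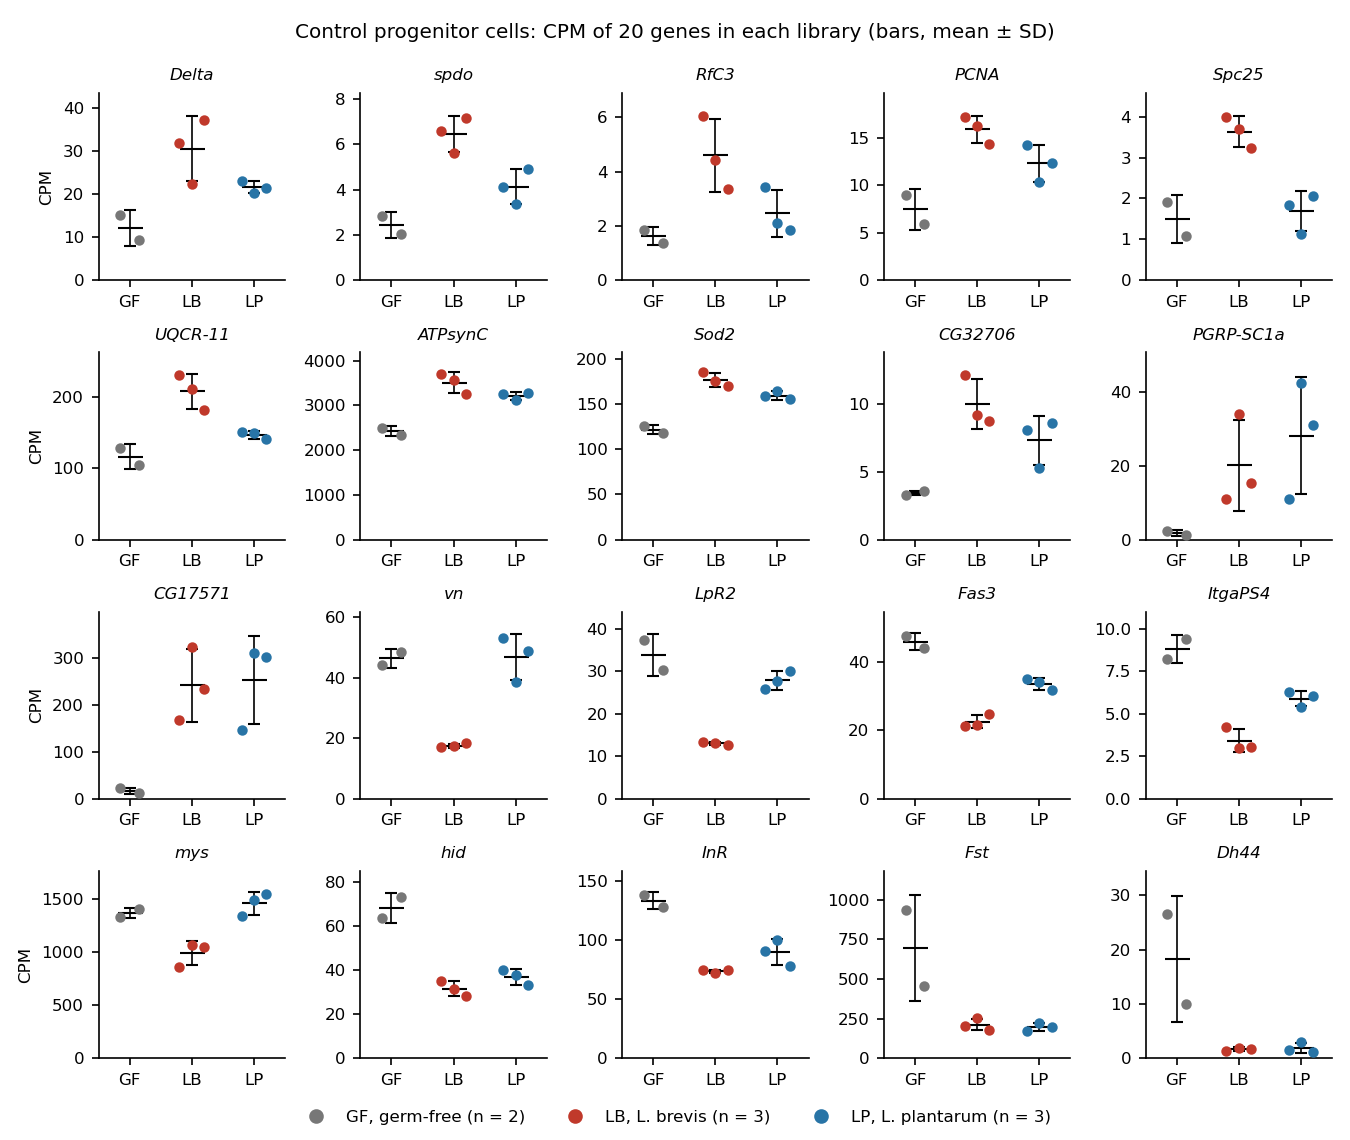
CPM of 20 genes in each control library, with germ-free (GF, grey), L. brevis (LB, red) and L. plantarum (LP, blue) libraries as points and the mean ± SD as bars. Delta, spdo and RfC3 are higher in every L. brevis library than in either germ-free library. Vn and LpR2 are lower in every L. brevis library than in any other library drawn. Among the control libraries drawn, Dh44 and Fst are high in the germ-free ones alone.

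Part of the DNA replication machinery rose. Of 43 tested genes of replication and S phase, 13 were called higher and 0 lower, with a median log2 fold change of 0.39. They included the clamp and its loader, the replicative helicase and the origin complex. RfC3, a clamp loader subunit, had 1.85 and 1.38 CPM in germ-free cells and 6.04, 4.41 and 3.37 CPM with L. brevis, a rise of 1.5 (SE 0.291, edgeR adjusted p = 0.0103). PCNA, the sliding clamp, had 8.98 and 5.92 CPM against 17.1, 16.2 and 14.3 CPM, a rise of 1.08 (SE 0.236, edgeR adjusted p = 0.0161). Neither gene overlapped between the groups, as was so for nearly all called genes. The helicase subunits dpa, Mcm5, Mcm6 and Mcm7 rose by 0.94, 1.02, 0.80 and 0.91, the origin recognition subunit Orc2 by 1.00, and Psf2 of the GINS complex by 1.15. Others called were RfC4 and CG8142 of the clamp loader, the ligase DNAlig1, the ribonucleotide reductase subunit RnrS and the kinase Cdk2, at 0.50 to 0.89.

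Mitosis genes followed with fewer calls. Of 40 tested, 5 were higher and 0 lower, with a median of 0.38. The kinetochore subunit Spc25 had 1.91 and 1.08 CPM in germ-free cells and 3.98, 3.69 and 3.24 CPM with L. brevis (log2 fold change 1.26, SE 0.272, edgeR adjusted p = 0.0153). The others were borr and Det of the chromosomal passenger complex (0.91 each), the kinetochore subunit Nuf2 (0.61) and the checkpoint protein mad2 (0.55). All 5 were higher in each L. brevis library than in either germ-free library, but the groups did not overlap in 937 of the 939 called genes. The length-adjusted fit called 9 replication genes and 4 mitosis genes higher. Without germ-free replicate 2 the calls were 0 in both lists, without germ-free replicate 1 they were 3 and 3, and without L. brevis replicate 1 they were 4 and 1. With the pair of libraries that stood apart left out, 4 and 5 were called.

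Nuclear-encoded genes of mitochondrial energy production were the list with the most genes that rose. Of 67 tested subunits of the respiratory chain and ATP synthase, 30 were called higher and 0 lower, with a median log2 fold change of 0.43 and 64 of 67 positive. ATPsynC, the ring subunit of ATP synthase and the called gene with the highest CPM among those that rose, had 2500 and 2350 CPM in germ-free cells and 3702, 3574 and 3260 CPM with L. brevis, a rise of 0.53 (SE 0.099, edgeR adjusted p = 0.00862). ATPsynbeta, its catalytic subunit, rose by 0.40 (SE 0.081, edgeR adjusted p = 0.0119). UQCR-11 of complex III had the largest rise of the list, 0.84 (SE 0.132, edgeR adjusted p = 0.00503), from 129 and 105 CPM to 231, 212 and 182 CPM. These genes separated the groups without overlap, as did nearly all called genes. The called subunits covered complex I (ND-AGGG at 0.74, ND-MLRQ at 0.69, ND-49 at 0.40), complex II (SdhC at 0.46 and SdhD at 0.47), complex III, complex IV (COX7A at 0.45) and ATP synthase.

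The machinery that translates mitochondrial genes moved the same way. Of 72 mitochondrial ribosomal proteins, 29 were higher and 0 lower, with a median of 0.40 and 71 of 72 positive. The largest was mRpL34, at 17.8 and 12.1 CPM in germ-free cells and 29.9, 26 and 22.1 CPM with L. brevis, a rise of 0.79 (SE 0.196, edgeR adjusted p = 0.0263). Of 32 proteasome subunits, 11 were higher and 0 lower, with a median of 0.26 and all 32 positive. Prosbeta5, a catalytic subunit, had 169 and 150 CPM against 239, 230.5 and 210.4 CPM (0.51, SE 0.100, edgeR adjusted p = 0.0107). By contrast, 0 of 82 cytosolic ribosomal proteins were called in either direction, with a median of 0.08 that became -0.11 with the length trend removed, and 0 of 30 Myc and nucleolar growth genes and 0 of 20 V-ATPase subunits were called.

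Most of these members are short: 48 of the 67 respiratory genes, 62 of the 72 mitochondrial ribosomal proteins and 16 of the 32 proteasome subunits lie in the shortest bin, as do 65 of the 82 cytosolic ribosomal proteins. With the length trend removed, 9 respiratory, 8 mitochondrial ribosomal and 2 proteasome genes were called higher and 0 lower, with medians of 0.23, 0.17 and 0.14. Without the ribosomal RNA genes the counts were 20, 22 and 9. With both libraries that stood apart left out they were 41, 19 and 5. They fell to 4, 6 and 1 without L. brevis replicate 1, to 13, 3 and 3 without germ-free replicate 1, and to 0, 0 and 0 without germ-free replicate 2. Without L. brevis replicate 2 they were 16, 15 and 5, and without replicate 3 they were 45, 37 and 10.

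**Figure D4:**
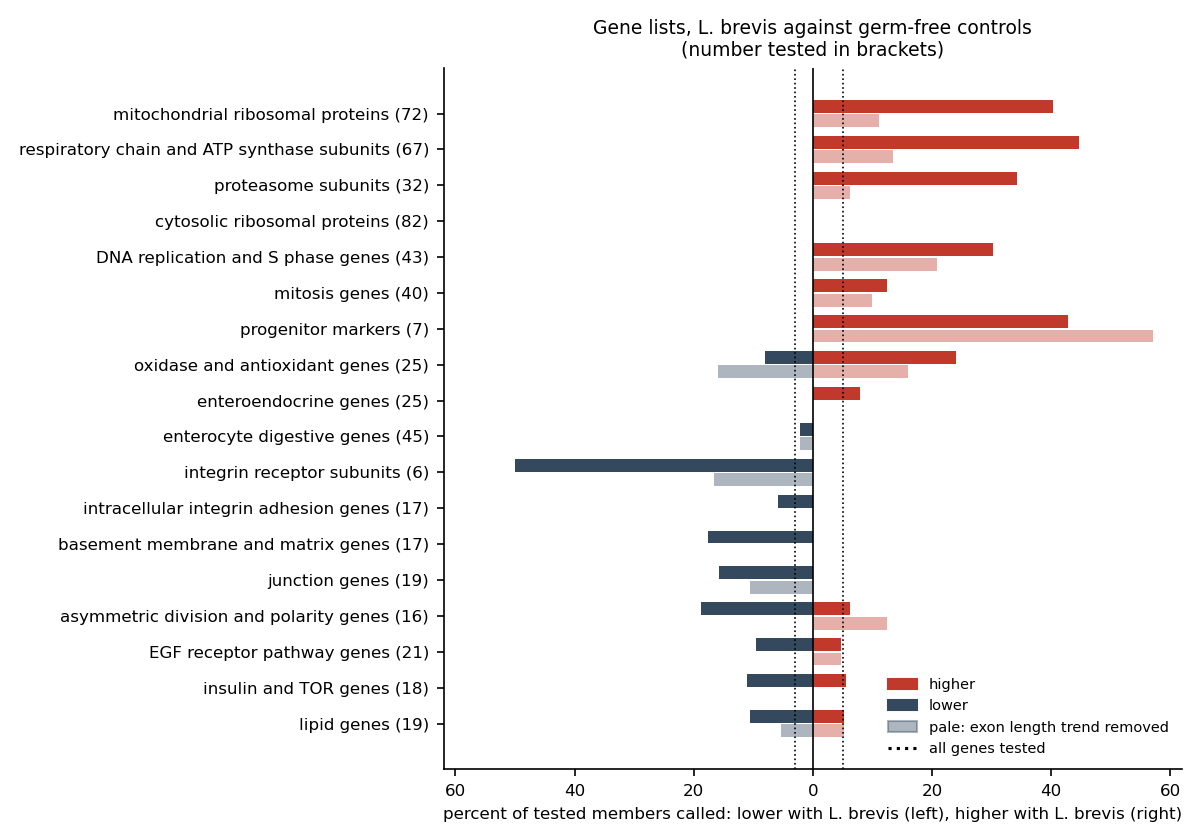
Percent of tested members called higher (right) or lower (left) with L. brevis in 18 gene lists, with the full bars from the fit used throughout, the pale bars after removal of the exon length trend, and dotted lines at the shares of all genes tested, 5.01% higher and 2.95% lower. The respiratory, mitochondrial ribosomal and proteasome bars shrink to 9 of 67, 8 of 72 and 2 of 32 members, and the DNA replication bar to 9 of 43.

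Some antioxidant enzymes were among the genes that rose. Of 25 oxidase and antioxidant genes, 6 were higher and 2 lower, with a median of 0.03. Sod2, the mitochondrial superoxide dismutase, had 126 and 118 CPM in germ-free cells and 185, 175 and 170 CPM with L. brevis, a rise of 0.54 (SE 0.094, edgeR adjusted p = 0.00770). The peroxiredoxins Prx2, Prx3, Prx4, Prx5 and Prx6a, which reduce peroxides, rose by 0.42 to 0.63. The glutathione transferase GstD5 and the glutathione synthesis subunit Gclm were lower, at -0.58 and -0.47. In the length-adjusted fit 4 were higher and 4 lower, and Prx2 and Prx6a were no longer called. Leaving out germ-free replicate 2 left 0 of the higher calls, against 3 without germ-free replicate 1 and 3 without L. brevis replicate 1. The chaperone Hsp60A, which folds proteins in mitochondria, rose by 0.42 (SE 0.116, edgeR adjusted p = 0.0385), while the co-chaperone stv was lower (-0.52, edgeR adjusted p = 0.0485), and the other 19 of 21 heat-shock chaperones were not called. The length-adjusted fit kept Hsp60A and not stv. The Hsp60A call was lost without germ-free replicate 1 (0.263), germ-free replicate 2 (0.115), L. brevis replicate 1 (0.0746) or L. brevis replicate 2 (0.0978).

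Several cell adhesion genes fell. Fasciclin 3 (Fas3), an adhesion protein of septate junctions, had 47.6 and 44.1 CPM in germ-free libraries and 21.4, 21.5 and 24.6 CPM with L. brevis. Its log2 fold change of -1.03 (SE 0.116, edgeR adjusted p = 0.00106) held in every fit that left out a library and with the length trend removed (-0.72, adjusted p = 0.0159). Among 19 junction genes 3 were lower and 0 higher, the others being scrib, a septate junction and polarity protein (-0.93, SE 0.187), and the cell adhesion molecule Nrg (-0.36, SE 0.083). Of 6 integrin subunits tested, 3 were lower and 0 higher. ItgaPS4, an alpha subunit, had 8.22 and 9.42 CPM against 4.22, 3.00 and 3.07 CPM, a fall of 1.36 on the log2 scale (SE 0.185, edgeR adjusted p = 0.00267). The beta subunit mys had 1333 and 1404 CPM against 865, 1066 and 1049 CPM (-0.46, SE 0.104, edgeR adjusted p = 0.0185), and the other beta subunit, Itgbn, changed by -0.41. All 3 subunits were lower in each L. brevis library than in either germ-free library, a separation shared by nearly all called genes.

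Matrix and polarity genes went the same way in part. Of 17 basement membrane and matrix genes, 3 were lower and 0 higher. These were the perlecan gene trol (-0.58, SE 0.138), the laminin subunit wb (-0.49, SE 0.107) and the matrix metalloproteinase Mmp1, which had 312 and 302 CPM in germ-free cells and 187, 213 and 189 CPM with L. brevis (-0.64, SE 0.142, edgeR adjusted p = 0.0170). Of 17 intracellular integrin adhesion genes, Vinc, the vinculin gene, was the only one called (-0.43). Of 16 asymmetric division and polarity genes, the apical polarity genes crb and sdt and the junction linker cno were lower (-0.73, -0.87 and -0.80), and spdo was higher. These are long genes, with 13 of the 19 junction genes and 14 of the 17 matrix genes in the longest bin. With the length trend removed, 2 junction genes (Fas3 and scrib), 1 integrin subunit (ItgaPS4) and 0 matrix or intracellular adhesion genes were called lower, and the polarity list had 2 higher and 0 lower. Leaving out L. brevis replicate 1 left 2 junction, 1 integrin, 1 matrix and 1 polarity gene lower, and leaving out either germ-free replicate left 1, 1, 0 and 0.

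Of 21 genes of the EGF receptor pathway, 2 were lower (9.52%) and 1 higher (4.76%), against 2.95% and 5.01% of all genes tested. In this list 12 genes lie in the longest bin, and with the length trend removed 0 were lower and 1 was higher. Vein (vn), a secreted ligand of the EGF receptor that is made in visceral muscle and in progenitors, had 44.2 and 48.6 CPM in germ-free cells and 17.0, 17.4 and 18.3 CPM with L. brevis. It fell by 1.40 on the log2 scale (SE 0.251, edgeR adjusted p = 0.00862). The value of 18.3 CPM was that of L. brevis replicate 3, the library with muscle transcripts, and the part of muscle was not tested. Vn lost its call without germ-free replicate 2 (adjusted p = 0.0874) and with the length trend removed (-1.13, adjusted p = 0.0576). Star (S), needed to export EGF ligands, changed by -0.57 (SE 0.098, edgeR adjusted p = 0.00765), and Cbl, which removes the receptor from the surface, by 0.47 (SE 0.089, edgeR adjusted p = 0.00890). In the length-adjusted fit Cbl was called (0.77) and S was not (-0.30, adjusted p = 0.0767). Without germ-free replicate 2 both calls were lost (0.0874 and 0.0774), and Cbl was also lost without germ-free replicate 1 (0.0761). The other 18 genes of the EGF receptor list were not called, including the receptor Egfr (-0.33, adjusted p = 0.384) and the ligand spi (0.08).

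The insulin receptor gene InR had 138 and 128 CPM in germ-free libraries and 74.1, 71.9 and 74.1 CPM with L. brevis. The groups were far apart relative to their spread, and InR changed by -0.86 (SE 0.207, edgeR adjusted p = 0.0247). Of 18 insulin and TOR genes, the kinase S6k was also lower (-0.32) and the TOR activator Rheb higher (0.32). None of the 3 was called with the length trend removed (adjusted p of 0.218, 0.714 and 0.160), and each lost its call in 3 or 4 of the 5 fits leaving out 1 library. LpR2, a receptor for lipoproteins, had 37.3 and 30.4 CPM against 13.4, 13.2 and 12.7 CPM, a fall of 1.37 (SE 0.167, edgeR adjusted p = 0.00144) that held in each of those fits and with the length trend removed (-1.08, adjusted p = 0.00743). Among the 19 lipid genes, SREBP, which drives fatty acid synthesis genes, was lower (-0.43, adjusted p = 0.0368) and the sterol carrier Npc2a higher (0.83, adjusted p = 0.00866). SREBP lost its call with the length trend removed (-0.25, adjusted p = 0.138) and in 4 of the 5 fits leaving out 1 library, the exception being the fit without L. brevis replicate 2. Npc2a kept it with the length trend removed (0.59, adjusted p = 0.0253) and lost it without germ-free replicate 2 (0.116). The length-adjusted fit called 1 lipid gene higher and 1 lower.

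Other signalling lists held few calls. Hid, an inducer of cell death, had 63.6 and 73.0 CPM in germ-free cells and 34.9, 31.3 and 28.1 CPM with L. brevis (-1.12, SE 0.171, edgeR adjusted p = 0.00374). Eiger (egr), the fly tumour necrosis factor, rose by 0.61 (SE 0.122, edgeR adjusted p = 0.0111). These were the only calls among 14 JNK stress genes; hid lost its call without germ-free replicate 2 (0.0616) and egr without germ-free replicate 1 (0.106). In the length-adjusted fit 1 JNK gene was higher and 2 were lower. Of 13 BMP genes brk and shn were lower (-0.66 and -0.35), and of 13 Hippo genes the kinase wts was lower (-0.63). The calls of brk, shn and wts were lost with the length trend removed, when shn stood at 0.00. Of 17 Wnt, 15 JAK-STAT and 12 Toll genes, 0 were called, although the Wnt list had a median of -0.37. Upd3, the cytokine induced by gut damage, had 99.1 and 84.9 CPM against 122, 103 and 92.6 CPM (adjusted p = 0.459).

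The largest rises among immune genes were of enzymes that degrade peptidoglycan. PGRP-SC1a, a secreted amidase, had 2.37 and 1.30 CPM in germ-free cells and 11.0, 34.1 and 15.3 CPM with L. brevis. Every L. brevis library was well above both germ-free libraries, with a log2 fold change of 3.42 (SE 0.827, edgeR adjusted p = 0.0303). PGRP-SC1b lies beside it on chromosome 2R and is nearly identical, so the split of reads between them is uncertain. Summed as 1 gene they had 5.43 and 3.02 CPM against 23.2, 69.8 and 33.0 CPM and rose by 3.29 (SE 0.812, edgeR adjusted p = 0.0327). PGRP-SC1a lost its call without germ-free replicate 1 (0.115), germ-free replicate 2 (0.221), L. brevis replicate 1 (0.0501) or L. brevis replicate 2 (0.0610), and with the length trend removed (3.21, adjusted p = 0.0553).

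Antimicrobial peptide genes, the usual output of the Imd pathway, were not called. Of 16 listed, 6 passed the filter on low counts and 0 were called. Their log2 fold changes were positive for 3 and negative for 3, from -1.51 to 1.92. The median was 0.12, or -0.14 with the length trend removed and 0.86 with both libraries that stood apart left out. In Notch RNAi the median was 1.07, with 6 of 6 positive and 1 called higher. Drosomycin (Drs) was at 1.21 and 0.432 CPM in germ-free cells and 1.18, 1.55 and 0.388 CPM with L. brevis, and AttD at 8.22 and 5.92 CPM against 3.98, 4.28 and 2.39 CPM (adjusted p = 0.143). The feedback inhibitors PGRP-LB and pirk had log2 fold changes of -0.06 and 0.18 (adjusted p = 0.853 and 0.6), with overlapping groups. Relish (Rel), the transcription factor of the pathway, had 693 and 713 CPM against 556, 826 and 713 CPM. Of the other Imd genes, the ubiquitin-conjugating enzymes Uev1A and eff rose by 0.34 and 0.32 and the deubiquitinase scny changed by -0.43. None of these 3 was called with the length trend removed (adjusted p of 0.0628, 0.0651 and 0.336). Duox, the gut oxidase that makes reactive oxygen, was at 0 to 0.273 CPM in the 5 libraries.

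Markers of mature cell types held few calls. Of 25 enteroendocrine genes, the peptide hormones Mip (1.13, SE 0.292, edgeR adjusted p = 0.0305) and CCHa1 (0.43, SE 0.120, edgeR adjusted p = 0.0413) were higher and 0 were lower, and with the length trend removed 0 were called. The median over the 25 was 0.30, with 18 positive, and 0.13 with both libraries that stood apart left out. The summed level of that list was 15705 and 17003 CPM in germ-free cells and 24286, 15802 and 22343 CPM with L. brevis, with L. brevis replicate 2 inside the germ-free range. Tachykinin (Tk), another gut hormone, had 1951 and 2300 CPM against 2973, 2168 and 3205 CPM (adjusted p = 0.404). The 45 digestive genes had a median of -0.13, which turned to 0.30 with those 2 libraries left out. Of the enterocyte genes, the maltase Mal-A5 was lower (-1.14, SE 0.250, edgeR adjusted p = 0.0161), as was Myo31DF, a myosin of the brush border (-0.51, SE 0.136, edgeR adjusted p = 0.0336). The Myo31DF call was lost with the length trend removed (adjusted p = 0.0943), and that of Mal-A5 held (0.0196).

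The largest rises among well-counted genes were those of CG17571, Ser8, Amyrel and Ag5r2, beside PGRP-SC1a and PGRP-SC1b. They do not stand for digestive genes as a group, since 0 of the 45 listed were called higher. CG17571, a serine protease gene, had 22.2 and 13.2 CPM in germ-free cells and 169, 322 and 234 CPM with L. brevis, the largest rise by the naming rule at 3.77 (SE 0.737, edgeR adjusted p = 0.0145). The serine protease Ser8 rose by 3.15, the amylase-related gene Amyrel by 3.08 and the antigen 5-related gene Ag5r2 by 2.77, with adjusted p from 0.0284 to 0.0365. All 4 were higher in each L. brevis library than in either germ-free library, which the naming rule required. Amyrel overlaps an exon of gprs on the other strand, so its reads may be shared. All 4 lost the call without germ-free replicate 1 (0.0750, 0.0872, 0.176 and 0.149) or germ-free replicate 2 (0.15, 0.224, 0.189 and 0.235). Ser8 and Ag5r2 lost it without L. brevis replicate 1, Amyrel and Ag5r2 without replicate 2 or 3, and all but CG17571 with the length trend removed (adjusted p of 0.0516, 0.0615 and 0.0686). CG32706 and CG6999 are neighbours on the X chromosome, at 9087129-9088073 and 9088367-9089314 on the plus strand. Their summed exon lengths are 872 and 875 bases, and their levels moved together across libraries. Sharing of reads between them was not tested, so they may not be separate results. CG32706 had 3.31 and 3.54 CPM against 12.1, 9.16 and 8.71 CPM (1.54, SE 0.226, edgeR adjusted p = 0.00317), and CG6999 rose by 1.51 (SE 0.216, edgeR adjusted p = 0.00317). Further large rises were CG13599 (1.68), the synaptic fusion protein gene Snap25 (1.51) and the sugar receptor gene Gr61a (1.41).

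The largest falls began with PPO2, a prophenoloxidase of crystal cells, a kind of blood cell. It had 9.95 and 5.53 CPM in germ-free cells (328 and 128 counts) and 0.304, 0.165 and 0 CPM with L. brevis (9, 5 and 0 counts), a log2 fold change of -5.61 (SE 1.22, edgeR adjusted p = 0.0175). The related gene PPO1 was the other call among 7 tested haemocyte markers, with 3.00 and 1.86 CPM against 0.169, 0 and 0.194 CPM. The median over the 7 was -0.87, and 6 were negative. The haemocyte factor srp had 19.7 and 20.3 CPM against 11.5, 14.1 and 16.3 CPM (-0.52, edgeR adjusted p = 0.0833), and the crystal-cell factor lz 1.40 and 1.86 CPM against 0.675, 0.494 and 1.49 CPM (-0.87, edgeR adjusted p = 0.224). Eater, a phagocytic receptor gene below the filter, was at 0.546 and 0.173 CPM against 0, 0.231 and 0 CPM. Of the other defining haemocyte markers, Hml was at 0.0303 and 0.432 CPM in germ-free cells and 0 in every L. brevis library, and NimC1 and He were at 0 in both germ-free libraries, while crq, a scavenger receptor gene also used in other cells, was at 257 to 331 CPM. The part of blood cells in this result was not tested. DESeq2 did not call PPO2 (adjusted p = 0.116), and the edgeR call was lost without either germ-free replicate (0.0888 and 0.0874).

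Dh44, which encodes a hormone related to corticotropin-releasing factor, had 26.5 and 10 CPM in germ-free cells and 1.25, 1.94 and 1.78 CPM with L. brevis. It fell by 3.46 (SE 0.488, edgeR adjusted p = 0.00317), a call that held in every fit leaving out a library. Fst, the cold-induced gene Frost, had 933 and 457 CPM against 206, 252 and 181 CPM, a fall of 1.71 (SE 0.3, edgeR adjusted p = 0.00862). Fst lies at 3R:9644978-9646154 on the minus strand, inside the span of Dh44 on the plus strand (3R:9638182-9650706). Their exons do not overlap in the annotation, but the use of strand in counting is not given in the sources used here. Among the controls the pair fell in the same libraries. In the Notch RNAi libraries Fst was at 351 to 710 CPM and Dh44 at 0.934 to 2.84 CPM. Sharing of reads between them was not tested. Fst lost its call without germ-free replicate 1 (0.0761), the library in which both genes were highest.

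Muc55B, a mucin gene, had 44.8 and 24.8 CPM in germ-free cells and 10.5, 7.18 and 7.44 CPM with L. brevis and changed by -2.06 (SE 0.557, edgeR adjusted p = 0.0421). It lost its call in all 5 fits leaving out a library, with adjusted p from 0.0838 to 0.223. CG31183 had 9.25 and 8.81 CPM against 1.28, 3.10 and 3.01 CPM (-1.87, SE 0.299, edgeR adjusted p = 0.00512). The remaining large falls were CG1698 (-2.48), which overlaps an exon of CG1688 on the other strand, CG5810 (-2.04), CG10000 (-1.95), CG14694 (-1.79), bnk (-1.78), FBgn0029082 (-1.73) and CG1544 (-1.71). The bnk and CG1544 genes lie close together at 3R:31193362-31194389 and 3R:31196916-31203722.

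Among genes of high CPM, 14-3-3epsilon, an adaptor protein, rose by 0.43 from 1370 and 1394 CPM to 1888, 1860 and 1829 CPM, Bacc rose by 0.48 and the cyclophilin Cyp1 by 0.46. Cyp1 lost its call with the length trend removed (0.31, adjusted p = 0.099), and the other 2 kept theirs. The genes with the highest CPM that fell were copies of 18S ribosomal RNA, led by 18SrRNA:CR45838 at 19803 and 19771 CPM against 10875, 13617 and 12413 CPM (-0.69, SE 0.202, edgeR adjusted p = 0.0488). Its copies 18SrRNA:CR45841, 18SrRNA:CR41548 and 18SrRNA-Psi:CR41602 share its reads and are uncertain one by one, and the pre-rRNA:CR45856 changed by -0.53, or -0.24 with the length trend removed (adjusted p = 0.522). The share of ribosomal RNA in a library also depends on its removal before sequencing, whose part was not tested, and the call for 18SrRNA:CR45838 was lost in each fit leaving out a library (adjusted p from 0.0610 to 0.220).

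The same bacterial contrast in Notch RNAi progenitors, which shares no library with the one above, called 1103 genes (9.36%), 574 higher (4.87%) and 529 lower (4.49%). Of the 939 genes called in controls, 795 (84.7%) had the same sign there, against 62.4% of all genes tested, and 214 were called in the same direction and 4 in the opposite one. The 214 are 22.8% of the control calls and 19.4% of the Notch RNAi calls. The length trend was present in both genotypes (rho -0.22 in Notch RNAi), and with it removed the same-sign share was 77.6%. In Notch RNAi the median log2 fold change was 0.21 for the genes called higher in controls and -0.25 for those called lower. The test of the difference between genotypes called 94 genes (0.798%), but 0 without germ-free replicate 1, 12 without germ-free replicate 2 and 29 without L. brevis replicate 1. The differences named here therefore rest on those libraries.

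**Figure D5:**
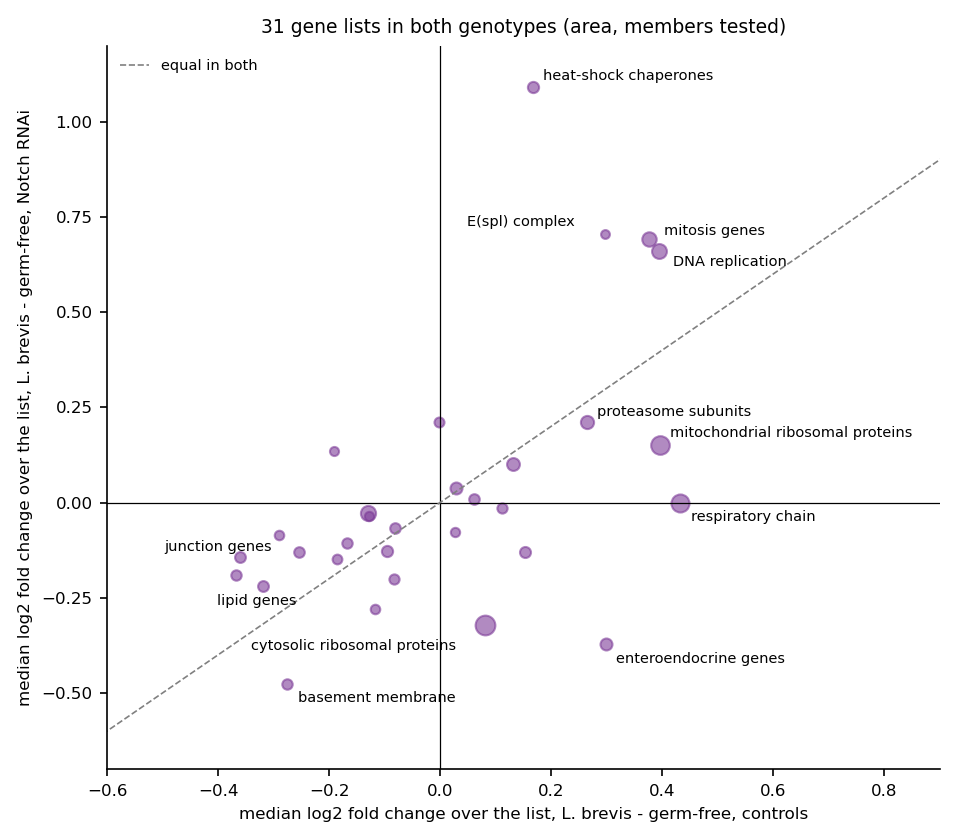
Median log2 fold change of L. brevis against germ-free over 31 gene lists of at least 10 tested members, in controls (horizontal) and in Notch RNAi (vertical), with point area growing with the number of members and a dashed line at equal values. DNA replication genes lie at 0.39 and 0.66 and heat-shock chaperones at 0.17 and 1.09, whereas the respiratory chain lies at 0.43 and 0.00.

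Delta, spdo and cell cycle genes rose in Notch RNAi too. Delta rose by 0.96 in Notch RNAi and spdo by 0.65 (edgeR adjusted p = 0.00746 and 0.0342), and neither rise was shown to differ from that in controls (differences of 0.36 and 0.73, adjusted p = 0.608 and 0.244). Of the 43 replication genes 26 were higher in Notch RNAi and of the 40 mitosis genes 24, with medians of 0.66 and 0.69. PCNA rose by 0.86 and RfC3 by 1.03 there. PGRP-SC1a also rose, by 4.35 (adjusted p = 0.00458). Other genes with the largest rises in controls were not called in Notch RNAi. CG17571, Ser8, Amyrel and Ag5r2 changed by -0.47, -0.02, 0.05 and -0.17 (edgeR adjusted p from 0.653 to 0.984). In germ-free Notch RNAi cells these genes averaged 197, 5.00, 25.3 and 73.3 CPM, against 17.7, 0.927, 1.94 and 15.9 CPM in germ-free controls. Their differences between genotypes were not called (edgeR adjusted p from 0.0547 to 0.158). Energy genes showed fewer calls there, with 1 of 67 respiratory genes higher and a median of 0.00. The difference between genotypes was positive for 65 of 67, had an unadjusted p under 0.05 for 40 and was called for 1, ND-49 (0.43, SE 0.096, adjusted p = 0.0499). Over all 11786 genes tested, 1818 had an unadjusted edgeR p under 0.05 for this difference. It was not particular to energy genes. The cytosolic ribosomal proteins, also mostly short, were positive for 82 of 82, with 45 at an unadjusted p under 0.05 and 0 called.

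Several changes seen in controls differed between genotypes. Fas3 changed by -0.09 in Notch RNAi, and the difference of -0.93 was called (SE 0.156, edgeR adjusted p = 0.0212). LpR2 changed by -0.31 there (difference -1.06, adjusted p = 0.0425) and Dh44 by -0.22 (difference -3.24, adjusted p = 0.0349). Mean Dh44 was 1.67 CPM in germ-free Notch RNAi cells, against 18.3 CPM in germ-free controls and 1.66 CPM in L. brevis controls. PPO2 was at 0 to 0.167 CPM in the germ-free Notch RNAi libraries and changed by -0.15 in Notch RNAi. Fst averaged 459 CPM in germ-free Notch RNAi cells and 457 CPM in Notch RNAi cells with L. brevis. The differences for PPO2 and Fst were not called (edgeR adjusted p = 0.232 and 0.0700). CG32706 and CG6999 changed by -0.38 and -0.30 in Notch RNAi, with differences of 1.92 and 1.81 (adjusted p = 0.0173 for both). ItgaPS4 fell in both genotypes, by 0.67 in Notch RNAi (adjusted p = 0.0216). Of the 21 chaperones, 15 were higher in Notch RNAi, with a median of 1.09 there and 0.17 in controls, or -0.13 in controls with both libraries that stood apart left out. The test called 0 differences between genotypes among them, with 14 at an unadjusted p under 0.05.

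Control cells from flies with L. plantarum give a further reference. The test of L. brevis against L. plantarum called 331 genes (2.81%), 216 of them lower with L. brevis (1.83%), and that of L. plantarum against germ-free called 19 (0.161%). These comparisons share libraries with the one above, so their values are given side by side only. Vn had 53.1, 38.5 and 48.9 CPM with L. plantarum, in the range of the germ-free libraries, and was lower with L. brevis by 1.41 on the log2 scale (edgeR adjusted p = 0.0127). LpR2 had 25.8, 27.9 and 30.1 CPM with L. plantarum (L. brevis against L. plantarum -1.09, adjusted p = 0.00886), mys 1342, 1493 and 1552 CPM (-0.56, adjusted p = 0.0127) and Fas3 34.9, 34.1 and 31.7 CPM (-0.58, adjusted p = 0.0194). Each of these 4 genes was lower in every L. brevis library than in any L. plantarum library. The matrix gene trol (-0.81, adjusted p = 0.0119) and the adhesion gene Nrg (-0.43, adjusted p = 0.0152) were also lower. The length trend differed between these groups too, with a median of -0.23 over the longest bin for L. brevis against L. plantarum.

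For other genes the L. plantarum libraries overlapped those of L. brevis or lay close to them. PGRP-SC1a had 11.1, 42.4 and 31.1 CPM and CG17571 had 146, 311 and 302 CPM with L. plantarum, overlapping the L. brevis libraries (L. brevis against L. plantarum -0.48 and -0.07, adjusted p = 0.684 and 0.965). Dh44 had 1.48, 2.91 and 1.19 CPM and Fst 171, 225 and 197 CPM, also within or near the L. brevis range, and PPO2 0.148, 0 and 0 CPM. Delta had 23.1, 20.3 and 21.3 CPM with L. plantarum, between the germ-free and most L. brevis values, and the difference of 0.50 from L. brevis was not called (SE 0.192, adjusted p = 0.160). Spc25 was higher with L. brevis than with L. plantarum (1.1, adjusted p = 0.03), as was Mcm5 (0.90, adjusted p = 0.0491). Of 43 replication genes 4 were called higher and 0 lower, and of 40 mitosis genes 1 was higher and 1 lower. Over all genes tested in that comparison, 2.81% were called in either direction and 1.83% were lower with L. brevis. UQCR-11 (0.50, adjusted p = 0.0371) and ND-49 (0.26, adjusted p = 0.0393) were the respiratory genes called in that comparison.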

How the data were processed

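The deposited values are whole-number read counts per gene, made by the authors for 17737 genes in 17 libraries. The submitters' processing notes name FastQC, Trimmomatic, HISAT2, SAMtools and edgeR, and the genome build, counting tool and use of strand are not given in the sources used here. Coordinates and exon lengths are those of the Ensembl BDGP6 annotation, and 17599 identifiers had a symbol in it or the reference name table. The members and gene lists were chosen with earlier results of these data known, and the lists were written from general knowledge.

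The count model was edgeR 4.0.16, run in R 4.3.3 as a robust quasi-likelihood fit. After filterByExpr and TMM scaling, 11786 genes with 99.98% of the counts entered 1 fit of all 17 libraries with a mean per group and no covariate. The contrast was L. brevis minus germ-free controls, with Benjamini-Hochberg adjustment over all genes tested and calls at an adjusted p under 0.05. The common coefficient of variation was 0.23. CPM are TMM-scaled, and a standard error (SE) is the size of the fitted change divided by the square root of its F. Genes named are Notch and Delta, the 12 largest rises and falls among called, non-overlapping genes whose higher group had 50 counts or more in every library, the 5 of highest CPM in each direction, and members of the lists. Other genes named were set beside them after their values were seen. Symbols absent from the tables were not analysed here. Counts matched all libraries by column name, and 0 count columns were unmatched. Replicates of a group differed by more than sampling noise (chi-square per degree of freedom 65.5 to 135), so none was counted as a copy. The labels call them biological replicates. The scripts were tested on simulated data.

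Removal of the length trend took a lowess curve (span 0.3) of each library's deviation in log2 CPM on exon length as an offset. The authors deposited log2 fold changes of L. brevis against L. plantarum and of L. plantarum against germ-free controls. In the authors' deposited tables the sum of both matched the fold change fitted here within a median absolute difference of 0.00956 over 10201 genes, with the same sign in 99% of them. Alternatives were other scalings and filters, DESeq2 1.42.0, fits on fewer libraries, removal of ribosomal RNA genes, the replicate number as a block and each library left out.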

Additional observations from a re-analysis of the deposited data

Results flagged for a closer look

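The response to L. brevis was tested for a difference between control and Notch RNAi progenitors, and 94 genes passed. Among genes named or listed here, the difference (log2 fold change in controls minus that in Notch RNAi) was positive for CG32706 (1.92), CG6999 (1.81), the Toll receptor gene Tl (2.09) and the NF-kappaB factor Dif (0.947). It was also positive for the Imd receptor genes PGRP-LF (1.18) and PGRP-LC (0.652), the enterocyte identity gene lab (1.09), the hormone-processing genes svr (1.27) and Pal2 (1.04), and Max (0.53), Sod2 (0.573) and ND-49 (0.429). It was negative for Dh44 (-3.24), CG10000 (-2.85), AttD (-2.52), Gclm (-1.1), LpR2 (-1.06), Fas3 (-0.934) and S (-0.656). Tl, Dif, PGRP-LC, PGRP-LF, lab, svr, Pal2, Max and AttD were not called in controls and were called in Notch RNAi, where AttD was higher and the others lower. With the length trend removed, Dif (adjusted p = 0.0508), Sod2 (0.0548), LpR2 (0.0623) and ND-49 (0.0508) no longer passed.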

How the results depend on the processing

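Over 16 alternatives, the 167 called genes of the naming rule and lists gave 2665 pairs of gene and alternative. The call was lost in 1092 of them and the sign reversed in 1, shn with the length trend removed, where its log2 fold change was 0.00. Of 11 list counts, 67 values under the alternatives moved by over 1.5 times. The 939 calls became 1446 with DESeq2, 0 with the 5 libraries alone, 119 with the 8 controls alone (35.3% higher), and 35 to 1102 when 1 library was left out. With the length trend removed there were 477 (58.7% higher), and without L. brevis replicate 3 and germ-free replicate 1 together 455 (66.8% higher); both settings were chosen after seeing the data. The 62.9% of calls that were higher became 56% under upper-quartile scaling, 59.1% with a mean count of at least 50, 56.7% without ribosomal RNA genes, and 20% to 62.3% when 1 library was left out. The 94 differences between genotypes became 434 with DESeq2, 3 with both libraries out, and 0 to 112 when 1 library was left out. At 0, without germ-free replicate 1, 1605 genes had an unadjusted p under 0.05. The same-sign share of 84.7% became 81.7% with DESeq2, 77.6% with the length trend removed, 80.9% with both libraries out, and 74.3% to 85.4% when 1 library was left out. The replicate block gave 869 calls (59.5% higher) and 111 differences; same-numbered samples deviated together at r = -0.15 to 0.18 over 40 pairs, so the numbers were not taken to pair samples. Except for smaller fits and left-out libraries, the cause of these shifts was not tested. Depth limits genes at a few counts, such as the antimicrobial peptides, and the small germ-free group (n = 2) limits every call.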
